A study of Mus musculus with 12 samples.

Results

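Cytosolic sulfotransferases are a family of soluble enzymes, and 10 of its mouse genes are described here: Sult1a1, Sult1b1, Sult1c2, Sult1d1, Sult1e1, Sult2a8, Sult2b1, Sult3a1, Sult4a1 and Sult5a1. They were found by symbol in the array annotation, which gave 12 of the 45101 probe sets on the array, with 2 each for Sult1d1 and Sult4a1 and 1 for each of the other members. In all, 18193 genes had a probe set of their own. The members lie on 6 chromosomes of the RefSeq annotation of GRCm38.p6: Sult1b1, Sult1d1 and Sult1e1 on chromosome 5, Sult1a1, Sult2a8 and Sult2b1 on 7, Sult5a1 on 8, Sult3a1 on 10, Sult4a1 on 15 and Sult1c2 on 17. Liver RNA came from 6 spontaneous hepatocellular carcinomas (HCC) and 6 normal livers of B6C3F1 mice, a hybrid strain, collected within a bioassay of the National Toxicology Program that ran for 2 years. The mice were 2 years old and untreated, and each sample was hybridised to 1 single-colour Affymetrix array. The labels give neither the sex of the mice nor whether each array stands for a separate animal, so p-values measure the spread between these 12 samples.

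Sulfotransferases move a sulfonate group from the donor PAPS onto a hydroxyl or amino group of a small molecule. The product is more soluble in water and is usually less active and more easily excreted. In liver the family acts on phenolic drugs, catechols, thyroid hormones, estrogens, hydroxysteroids and bile acids. Some members are made at very different levels in male and female mouse liver, under the control of growth hormone and sex steroids.

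Levels are given as log2(intensity + 16) after quantile normalization, on which the lowest possible value is near 4 and differences of dim probe sets are understated. A level of 1 probe set cannot be set against that of another, because probes differ in how well they bind. Every array had a 2% trimmed mean intensity of 500.0, and 14.2% to 18.1% of its probe sets had an intensity under 16. Quantile normalization left a median difference between HCC and normal liver of -0.02 over all probe sets. Of 4 hepatocyte markers measured, none passed the test between the groups, and their summed intensity ran from 165851 to 242442 in HCC and from 162613 to 230001 in normal liver. Their mean log2 level was 14.96 to 15.63 in HCC and 15.54 to 15.63 in normal liver. Cps1, which is among them, was at 12.65 in HCC 1 and 13.66 in HCC 4, against 15.22 to 15.34 in normal liver. In Cps1, 4 HCC lay below and 2 above every normal liver. In 4 HCC and 4 normal livers the mean level of 3 Y-linked genes (Uty, Kdm5d, Eif2s3y) exceeded that of the X-linked transcript Xist. The reverse held in HCC 1, HCC 4, normal 1 and normal 3, which are called here the arrays without Y-linked signal.

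**Figure D1:**
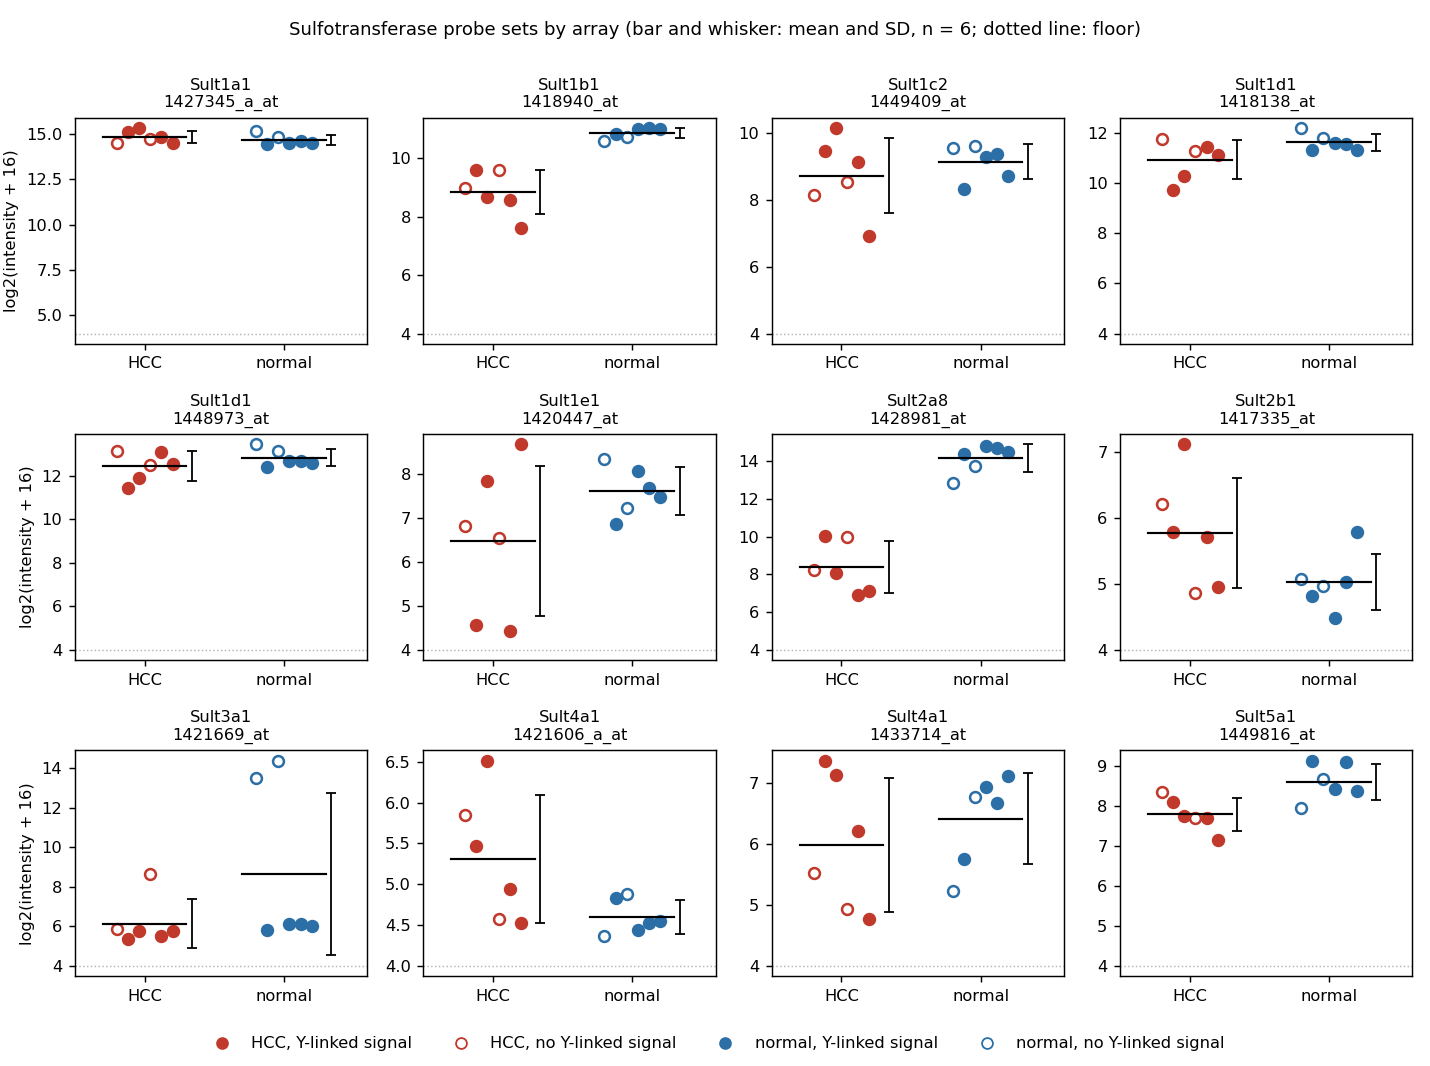
Level of each of the 12 sulfotransferase probe sets, as log2(intensity + 16), in every HCC (red, left) and every normal liver (blue, right). Filled points are arrays with Y-linked signal and open points arrays without it, the black bar is the group mean and the whisker its SD (n = 6). Sult2a8 and Sult1b1 are the panels in which all HCC lie below all normal livers, and Sult3a1 is high in 2 normal livers only.

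Between HCC and normal liver, 2 of the 12 probe sets fell and none rose at a Benjamini-Hochberg adjusted p under 0.05 in limma, against 8.33% of all 45037 probe sets tested (3.95% of all lower and 4.38% of all higher). The probe sets that fell were those of Sult2a8 and Sult1b1, and in both all 6 HCC lay below all 6 normal livers, as they did in 3.08% of all probe sets. No member had all HCC above all normal livers, against 3.41% of all probe sets, and the groups did not overlap in either direction in 6.49%. At an unadjusted p under 0.05, 4 probe sets were lower and 1 was higher, against 11.8% and 11.3% of all probe sets. The median difference over the 12 was -0.56 on the log2 scale. The carcinomas differed from one another in most of the other members. In RNA of whole tissue, fewer cells of a type cannot be told apart from less RNA in each cell.

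**Figure D2:**
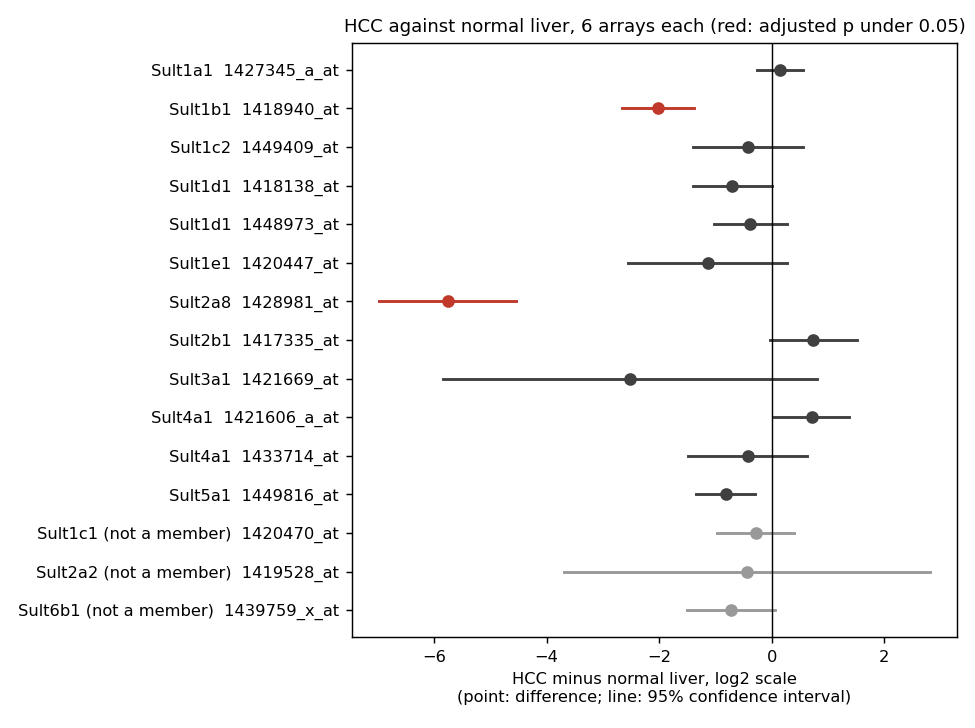
Difference between HCC and normal liver on the log2 scale for the 12 probe sets and for 3 probe sets of other Sult genes, with 95% confidence intervals from limma (n = 6 each). Sult2a8 at -5.76 and Sult1b1 at -2.02 are in red because they passed the test, and the interval of Sult3a1 is the widest among the members.

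The enzyme made by Sult1a1 acts on simple phenols and many phenolic drugs. Its level was 14.49 at the lowest, 14.80 at the median and 15.32 at the highest in HCC, and 14.44, 14.56 and 15.19 in normal liver. The groups overlapped, and HCC 3 alone lay above every normal liver. The difference was 0.14 ± 0.19 (SE, limma adjusted p = 0.708), with a 95% confidence interval from -0.27 to 0.56.

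Sult1b1 encodes an enzyme known for thyroid hormones and small phenols. Its deposited intensities were 524 (HCC 1), 768 (HCC 2), 408 (HCC 3), 788 (HCC 4), 385 (HCC 5) and 200.1 (HCC 6), against 1551 to 2056 in the normal livers. As log2 levels these ran from 7.61 to 9.62 in HCC, with a median of 8.84, and from 10.61 to 11.03 in normal liver, with a median of 10.91. All carcinomas lay below all normal livers, and they were more spread out, with an SD of 0.75 against 0.17. On the log2 scale Sult1b1 fell by 2.02 ± 0.30 (SE, adjusted p = 0.00157 in limma), which is 4.05-fold lower in HCC. It was at -2.35 ± 0.37 within the arrays with Y-linked signal (adjusted p = 0.0154) and at -1.36 ± 0.33 within those without it, where it did not pass (SE, limma adjusted p = 0.203).

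The gene lies on chromosome 5, from 87513327 to 87538195 in GRCm38.p6, beside Sult1d1 (87554650 to 87569006) and Sult1e1 (87575968 to 87591611). The neighbours did not pass the test, as given next. Sult1d1, known in mice for sulfating catecholamines, had 2 probe sets with r = 0.95 across the 12 arrays, a description of values that share arrays and transcript. The first was at 9.71 in HCC 2 and 10.26 in HCC 3 and between 11.10 and 11.75 in the other carcinomas, against 11.30 to 12.18 in normal liver. The second was at 11.46 in HCC 2 and 11.90 in HCC 3 and from 12.51 to 13.16 in the others, against 12.41 to 13.45 in normal liver. In both probe sets HCC 2 and HCC 3 were the lowest arrays of all, and the other HCC lay within or just under the normal range. Over the groups the differences were -0.70 ± 0.32 and -0.38 ± 0.30 (SE, limma adjusted p = 0.216 and 0.499).

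Sult1e1 encodes the estrogen sulfotransferase, which inactivates estradiol. Its level was 8.68 (HCC 6), 7.86 (HCC 3), 6.82 (HCC 1) and 6.56 (HCC 4), and close to the floor at 4.57 (HCC 2) and 4.43 (HCC 5), against 6.88 to 8.36 in normal liver. HCC 6 thus lay above every normal liver and 4 HCC lay below every normal liver. The SD was 1.72 among the carcinomas and 0.54 among the normal livers. The difference of -1.13 ± 0.65 did not pass (SE, limma adjusted p = 0.330, 95% confidence interval from -2.54 to 0.28).

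Sult1c2, a further member of the phenol-sulfating branch, was at 10.14 in HCC 3 and 6.93 in HCC 6, and between 8.15 and 9.47 in the other HCC, against 8.32 to 9.61 in normal liver. HCC 3 was above and HCC 1 and HCC 6 were below every normal liver. The difference was -0.42 ± 0.46 (SE, limma adjusted p = 0.640), with a 95% confidence interval from -1.40 to 0.57.

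Sult2a8 belongs to the hydroxysteroid and bile acid branch, and its enzyme has been described in mouse liver as acting on bile acids. Its deposited intensities were 299.7 (HCC 1), 1029 (HCC 2), 262 (HCC 3), 1024 (HCC 4), 113 (HCC 5) and 127 (HCC 6). The normal livers had 7552 (normal 1), 20268.0 (normal 2), 13715 (normal 3), 29336 (normal 4), 26991 (normal 5) and 23660.2 (normal 6). The highest carcinoma was thus far below the lowest normal liver. On the log2 scale the levels were 6.93 to 10.03 in HCC, with a median of 8.14, and 12.85 to 14.78 in normal liver, with a median of 14.43. Sult2a8 fell by 5.76 ± 0.56 (SE, limma adjusted p = 0.000100), or 54.1-fold, with a 95% confidence interval from -6.98 to -4.54.

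The gene spans 14410686 to 14446780 of chromosome 7. The fall of Sult2a8 was not equal in all tumours. Set against the mean of the normal livers on the log2 scale, HCC 5 and HCC 6 were at -7.22 and -7.05, HCC 3 and HCC 1 at -6.10 and -5.91, and HCC 4 and HCC 2 at -4.15 and -4.12. Among the normal livers, the 4 arrays with Y-linked signal lay between 14.39 and 14.78 and the 2 without it were lower, at 12.85 and 13.72. Within arrays with Y-linked signal the difference between HCC and normal liver was -6.55 ± 0.61 (SE, n = 4 each, limma adjusted p = 0.00160). Within arrays without it the difference was -4.17 ± 0.70 (SE, n = 2 each), which did not pass in limma (adjusted p = 0.139), where 7 of 45037 probe sets were called higher and 3 lower. The difference between these values was -2.39 ± 1.08 (SE, limma interaction, adjusted p = 0.662).

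Sult1b1 and Sult2a8 are the members that were lower in every carcinoma, so the sequence ahead of their start sites is shown. Each line holds the 250 bases before a RefSeq start site in GRCm38.p6, 5′ to 3′ on the minus strand, with capitals marking matches to the nuclear receptor motif AGGTCA or the TATA box TATAAA, read on both strands. Sult2a8 has 2 start sites in the table. The Sult1b1 stretch is chr5:87538196-87538445, and those of Sult2a8 are chr7:14446588-14446837 (upstream start) and chr7:14438552-14438801 (downstream start).
Sult1b1: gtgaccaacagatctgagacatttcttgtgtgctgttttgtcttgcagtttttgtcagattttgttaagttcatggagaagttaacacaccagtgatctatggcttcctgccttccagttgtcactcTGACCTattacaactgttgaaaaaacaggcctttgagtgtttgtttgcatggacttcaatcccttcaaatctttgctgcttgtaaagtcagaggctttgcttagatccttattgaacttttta
Sult2a8 upstream start: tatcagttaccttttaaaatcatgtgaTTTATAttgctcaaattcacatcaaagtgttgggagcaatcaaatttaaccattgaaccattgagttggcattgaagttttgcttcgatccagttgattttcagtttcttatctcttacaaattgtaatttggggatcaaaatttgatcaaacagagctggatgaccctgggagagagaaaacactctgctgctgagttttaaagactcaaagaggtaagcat
Sult2a8 downstream start: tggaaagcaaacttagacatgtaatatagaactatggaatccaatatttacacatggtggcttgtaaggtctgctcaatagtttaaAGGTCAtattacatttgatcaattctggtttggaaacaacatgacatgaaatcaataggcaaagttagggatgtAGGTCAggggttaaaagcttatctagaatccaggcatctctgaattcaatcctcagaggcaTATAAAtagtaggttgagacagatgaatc
Counted in bases from the start site, AGGTCA began at -123 ahead of Sult1b1 and at -164 and -90 ahead of the downstream start of Sult2a8. The downstream start of Sult2a8 also had TATAAA at -29, and the upstream start had its reverse complement, TTTATA, at -223. These matches did not overlap one another. Of the 12 start sites in the table for 9 of the 10 members, 3 had AGGTCA, the third being that of Sult1e1, against 14.0% of 32851 start sites of all genes. The letters TATAAA were found on either strand in 2 of the 12, against 12.4% of all. A second start site of Sult1b1 had neither of them. Other motifs searched on both strands were the STAT5 motif TTCNNNGAA (1 of 12 members' start sites, 7.02% of all), GCGTG of the xenobiotic response element (3 of 12, 28.2% of all) and the E-box CACGTG (0 of 12, 6.02% of all). The DR1, DR4 and IR0 repeats of AGGTCA and the HNF1 motif had no match in the members. A match of letters is a description of the sequence and not a binding site.

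Sult2b1 makes a cholesterol and pregnenolone sulfotransferase that is best known from skin. Its deposited intensities were 12.2 to 132 in HCC and 6.93 to 36.9 in normal liver. It was at 7.12 in HCC 3, 6.21 in HCC 1 and 5.79 in HCC 2, above all normal livers, and between 4.87 and 5.71 in the other HCC, against 4.48 to 5.78 in normal liver. The difference was 0.75 ± 0.35 and did not pass (SE, limma adjusted p = 0.229, 95% confidence interval from -0.02 to 1.51). Of 5 measured markers of skin keratinocytes, Krt10 fell and none rose, against 5.49% of all genes lower and 5.27% higher. The summed intensity of these markers was 639 to 821 in HCC and 703 to 1017 in normal liver.

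Sult4a1 is expressed mainly in neurons, and no substrate is established for its enzyme. Its 2 probe sets disagreed in sign, at 0.71 ± 0.31 for the first and -0.42 ± 0.49 for the second (SE, limma adjusted p = 0.188 and 0.664), and followed each other weakly (r = 0.32 over 12 arrays, as a description). The first lay between 4.36 and 4.88 in all normal livers, close to the floor, and reached 6.51 in HCC 3 and 5.85 in HCC 1. The second ran from 4.77 to 7.37 in HCC and from 5.23 to 7.11 in normal liver. No marker of neurons passed the test among 6 measured, and their summed intensity was 502 to 1024 in HCC and 681 to 966 in normal liver.

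Sult5a1 encodes a sulfotransferase whose substrates are not well known. It was at 7.15 in HCC 6, 7.73 at the median and 8.35 in HCC 1, the highest carcinoma, against 7.96, 8.54 and 9.13 for the lowest, the median and the highest normal liver. The lowest normal liver was normal 1, and 4 HCC lay below it. The difference was -0.82 ± 0.25 (SE, 95% confidence interval from -1.35 to -0.29), and its limma adjusted p of 0.0592 missed the threshold. It passed under 4 other settings, with adjusted p from 0.0246 to 0.0411, and without HCC 1 (adjusted p = 0.0406) or normal 1 (adjusted p = 0.0348).

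Sult3a1, whose enzyme sulfates amines and is known in mice as a female-predominant liver gene, had an SD of 1.24 among the carcinomas and 4.10 among the normal livers. In arrays with Y-linked signal its level was 5.35 to 5.77 in the 4 HCC and 5.83 to 6.14 in the 4 normal livers. In arrays without it the level was 5.87 in HCC 1 and 8.65 in HCC 4, against 13.52 in normal 1 and 14.38 in normal 3. As deposited intensities the values without Y-linked signal were 41.8 in HCC 1 and 402 in HCC 4, against 11596 in normal 1 and 20159 in normal 3. The 2 carcinomas without Y-linked signal thus lay far below the 2 normal livers without it. The arrays with Y-linked signal were all at 6.14 or lower, with the carcinomas under the normal livers by less than 1 on the log2 scale.

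The gene spans 33851020 to 33879475 of chromosome 10. The difference between HCC and normal liver in Sult3a1 was -0.44 ± 0.19 in the arrays with Y-linked signal (SE, n = 4 each, limma adjusted p = 0.253) and -6.69 ± 1.01 in those without it (SE, n = 2 each, limma adjusted p = 0.129). The difference of these differences was 6.26 ± 0.82 and passed (SE, limma interaction, adjusted p = 0.0319). It was called in 1 of the 12 member probe sets and in 0.0444% of all 45037. At an unadjusted p under 0.05 in limma the interaction was counted in 3 of the 12, against 7.97% of 18193 genes. Normal livers with Y-linked signal were at 5.83 to 6.14, not far above the lowest possible value near 4. Sult3a1 could thus fall little there, and the interaction cannot tell a smaller effect from a lack of room to fall. Over all 12 arrays the difference between HCC and normal liver was -2.52 ± 1.54 (SE, limma adjusted p = 0.361). The interaction kept its sign with each array left out, at 4.86 to 7.65, but no longer passed without HCC 3, HCC 5 or any single normal liver (adjusted p from 0.0731 to 0.204). It also missed the threshold with a pseudocount of 1 (adjusted p = 0.112) and with the replicate number as a block (adjusted p = 0.665). The labels name no sex, and HCC 1 and HCC 4 also had the highest levels of the Wnt target Glul, at 15.17 and 15.10 against 11.40 to 14.62 in the other HCC, and the lowest of the periportal gene Cyp2f2, at 7.37 and 6.25 against 11.17 to 13.14. Those features and the absence of Y-linked signal cannot be told apart in 2 carcinomas. HCC 6, which had Y-linked signal, was at 14.62 in Glul, against 13.29 to 14.33 in normal liver.

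**Figure D3:**
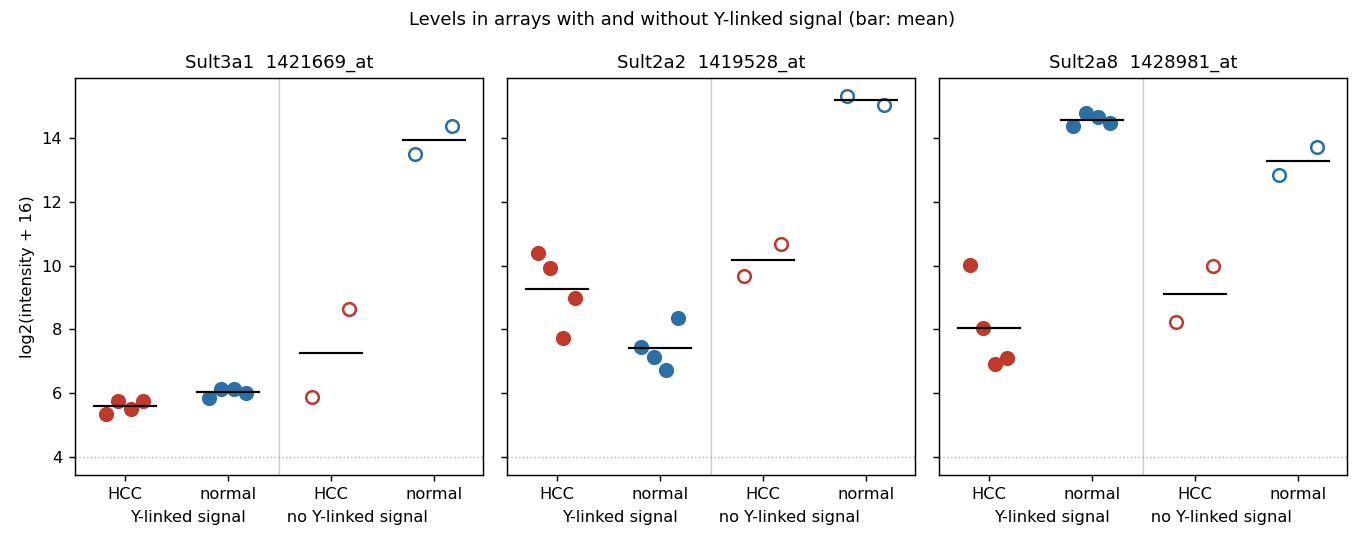
Levels of Sult3a1, Sult2a2 and Sult2a8 as log2(intensity + 16) in arrays with Y-linked signal (filled, left of each panel: 4 HCC and 4 normal livers) and without it (open, right: 2 HCC and 2 normal livers), with the mean as a bar. Sult3a1 and Sult2a2 are at 13.52 or above in the 2 normal livers without Y-linked signal and at 10.70 or below in every HCC, while Sult2a8 is lower in HCC on both sides.

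Of 13 other Sult genes listed, 3 had a probe set of their own, Sult2a2, Sult1c1 and Sult6b1, and none passed between HCC and normal liver. Sult2a2, a hydroxysteroid sulfotransferase of the female-predominant Sult2a cluster on chromosome 7, had a level of 7.73 to 10.41 in the 4 HCC with Y-linked signal, against 6.71 to 8.35 in the 4 normal livers with it. Without that signal it was at 9.67 in HCC 1 and 10.70 in HCC 4, against 15.31 in normal 1 and 15.06 in normal 3. HCC 5 lay within the range of the normal livers with Y-linked signal, and the other carcinomas lay above that range and below normal 1 and normal 3. The difference was 1.85 ± 0.58 with Y-linked signal (SE, n = 4 each, limma adjusted p = 0.130) and -5.003 ± 0.43 without it (SE, n = 2 each, limma adjusted p = 0.0811). The interaction was 6.85 ± 0.95 (SE, limma, adjusted p = 0.0432), and it no longer passed without any of 9 single arrays (adjusted p from 0.0641 to 0.231), with a pseudocount of 1 (0.107) or with a replicate block (0.679). The cluster holds several near-identical genes, and which of them this probe set detects was not tested, so the name Sult2a2 is uncertain. The same holds for Sult3a1 and its neighbour Sult3a2. Sult1c1 was at -0.28 ± 0.32 and Sult6b1 at -0.72 ± 0.36 (SE, limma adjusted p = 0.654 and 0.255).

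Tumour by tumour, the number of the 12 probe sets below every normal liver was 4 for HCC 1 (20.3% of all probe sets), 6 for HCC 2 (19%), 6 for HCC 3 (22.1%), 6 for HCC 4 (22.2%), 5 for HCC 5 (20.9%) and 7 for HCC 6 (25.6%). The number above every normal liver was 2 for HCC 1 (20.7% of all probe sets), 3 for HCC 2 (18.8%), 5 for HCC 3 (21.5%), 0 for HCC 4 (21.5%), 1 for HCC 5 (19.4%) and 1 for HCC 6 (22.1%). HCC 3 combined the highest Sult1a1, Sult1c2 and Sult2b1 of all 12 arrays with low Sult1d1. HCC 6 had the lowest Sult1b1, Sult1c2 and Sult5a1 and the highest Sult1e1 of all 12. HCC 2 and HCC 5 shared a Sult1e1 level near the floor but differed in Sult1d1. Each of these tumours was measured on 1 array, so a tumour's own values carry no replicate error.

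**Figure D4:**
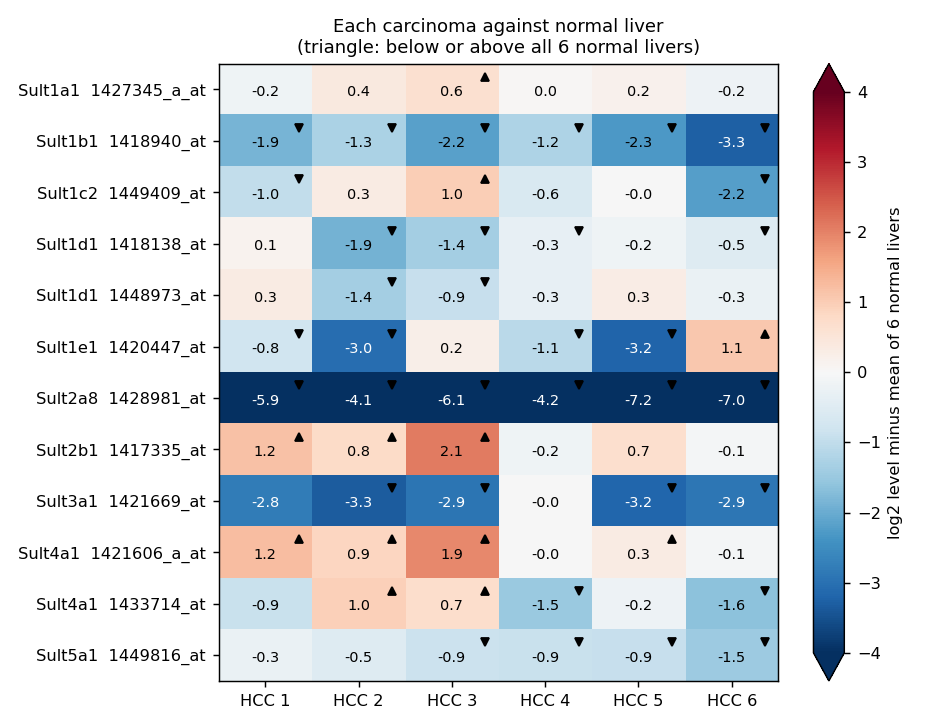
Level of each probe set in each carcinoma minus the mean of the 6 normal livers, on the log2 scale, in colour and as a number, with triangles where the carcinoma lay below or above all 6 normal livers. The colour scale ends at 4 in either direction, which the Sult2a8 row exceeds in all 6 carcinomas, and HCC 3 has the most upward triangles. In the Sult3a1 row the mean is raised by the 2 normal livers without Y-linked signal. Against the mean of normal livers alike in that signal, HCC 1 was at -8.09 and HCC 4 at -5.30. The other carcinomas were then between -0.68 and -0.26.

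Genes whose pattern was most like a member were taken as the 3 with the highest Pearson correlation over the 12 arrays among 11382 genes, as a description in which the group difference itself counts. For Sult2a8 these were the carboxylesterase Ces1e (r = 0.98), Mmaa (0.96) and Lactb (0.96). For Sult1b1 they were the peroxisomal phytanic acid hydroxylase Phyh (0.98), the serine racemase Srr (0.98) and Sdr9c7 (0.97). For Sult3a1 the closest was Slc22a26, a transporter of the organic anion family (0.94), followed by Mettl17 (0.87) and Pank3 (0.84). Sult1e1 was closest to the flavin monooxygenase Fmo1 (0.91), with Creg1 (0.88) and Fkbp2 (0.87), and Sult1a1 to Slc35c2 (0.91), the coagulation factor gene F10 (0.86) and Rdh16f2 (0.85). Sult5a1 was closest to Aifm3, Dcaf10 and Rnf123 (all 0.91), and Sult1d1 to Rab43 (0.90), Zfp866 (0.89) and Jup (0.87). Sult1c2 was closest to Sec16b, Rab3a (both 0.89) and Pus3 (0.88), and Sult2b1 to Slc39a11 (0.93), Snd1 (0.88) and Gnai3 (0.87). The second, brighter probe set of Sult4a1, which followed the first weakly, was closest to Mrpl3 (0.92), Uxt (0.91) and Rpa3 (0.90). For Sult1d1 the second, brighter probe set was used as well. The highest of 11382 correlations over 12 arrays are high in part by selection.

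The enzymes need PAPS, which is made from sulfate and ATP by Papss1 and Papss2. Of 6 genes for PAPS synthesis, its transport into the Golgi and the breakdown of its product PAP, none passed between HCC and normal liver in limma, against 10.8% of 18193 genes represented by their brightest probe set. At an unadjusted p under 0.05 there were 2, against 27.4% of those genes. Papss2, the main form in liver, was at 11.18 to 12.65 in HCC and 12.04 to 13.02 in normal liver, which is a difference of -0.54 ± 0.28 (SE, limma adjusted p = 0.266). Papss1 differed by -0.04 ± 0.17, the Golgi PAPS transporters Slc35b2 and Slc35b3 by 0.15 ± 0.22 and 0.42 ± 0.15, and the PAP phosphatases Bpnt1 and Bpnt2 by -0.41 ± 0.16 and -0.12 ± 0.15 (SE, limma adjusted p from 0.0967 to 0.919). Dimmer probe sets were at -0.44 and -0.28 for Bpnt2, -0.42 for Bpnt1 and 0.59 for Slc35b2. Those of Papss2 were at -0.38, -0.11 and -0.51, and none of the dimmer ones passed (limma adjusted p from 0.122 to 0.893). Slc35b3 passed with the deposited scaling (adjusted p = 0.0331), without dim probe sets (0.0298) and in an exact Wilcoxon test (0.0498). Bpnt1 passed as lower without dim probe sets (0.0490) and without HCC 1 (0.0456).

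Sulfate itself comes from blood and from the oxidation of cysteine. Of 15 genes of sulfate transport and of the supply of sulfate and sulfite, 6 fell and none rose, with a median difference of -0.67, against 5.49% of genes lower, 5.27% higher and a median of -0.04 over all 18193 genes. Ethe1, the mitochondrial persulfide dioxygenase, averaged 10.61 ± 0.32 in HCC and 12.24 ± 0.38 (SD) in normal liver and fell by 1.62 ± 0.21 (SE, limma adjusted p = 0.000626). Cth, which makes cysteine from cystathionine, fell by 1.55 ± 0.35 (adjusted p = 0.0180), and Csad, an enzyme of taurine synthesis, by 1.55 ± 0.45 (adjusted p = 0.0491), a call that was lost without any of 10 single arrays. The other 3, named after their values were seen, were sulfite oxidase Suox at -1.47, the sulfate anion transporter Slc26a1 at -1.36 and the cysteine dioxygenase Cdo1 at -0.60. Each of these 3 and Ethe1 lay lower in all 6 HCC than in all 6 normal livers, as did 3.08% of all probe sets.

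Other enzymes remove sulfate or add it in the Golgi. Of 13 sulfatases and their activators, 1 rose, the lysosomal Galns by 1.19 ± 0.27 (SE, limma adjusted p = 0.0183), against 5.27% of all genes, and the median difference was 0.10. Of 31 Golgi sulfotransferases, which sulfate glycans, lipids and tyrosines, 2 fell, against 5.49% of all genes, with a median of -0.19. These were Hs3st3a1 of heparan sulfate, by 1.54 ± 0.28 (adjusted p = 0.00586), at a level of 4.45 to 5.08 in HCC and 4.95 to 6.81 in normal liver, and Chst13 of chondroitin sulfate, by 0.75 ± 0.17 (adjusted p = 0.0171). Whether these shares differ from that of the supply genes was not tested.

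**Figure D5:**
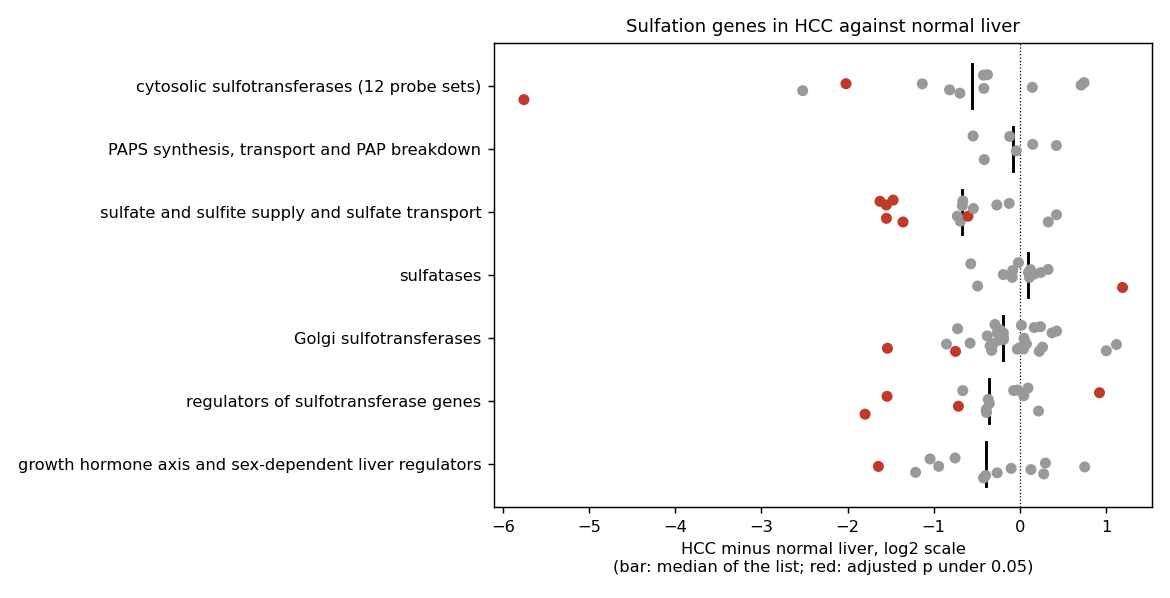
Difference between HCC and normal liver on the log2 scale for the 12 sulfotransferase probe sets and for the genes of 6 lists, 1 point each, with the list median as a bar and red for an adjusted p under 0.05. The list of sulfate and sulfite supply has 6 red points, all below 0, the PAPS list has none, and Sult2a8 is the point farthest to the left.

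Among 14 measured genes known to regulate sulfotransferase genes, 3 fell and 1 rose, with a median of -0.36, against 5.49% and 5.27% of all genes. The xenobiotic receptor CAR (Nr1i3) averaged 9.29 ± 0.88 in HCC and 11.09 ± 0.29 (SD) in normal liver and fell by 1.80 ± 0.35 (SE, limma adjusted p = 0.00785). The bile acid receptor FXR (Nr1h4) fell by 1.54 ± 0.31 (adjusted p = 0.00895), and the oxidative stress factor Nfe2l2 rose by 0.92 ± 0.20 (adjusted p = 0.0145). The third that fell, named after its values were seen, was Cebpa at -0.71. The pregnane receptor Nr1i2 and Hnf4a, also named afterwards, were at -0.07 and 0.09 and did not pass.

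Of 13 measured genes of the growth hormone axis and of sex-dependent liver regulation, 1 fell, against 5.49% of all genes, and none rose. The growth hormone receptor Ghr was at 11.35 to 13.32 in HCC and 14.11 to 14.49 in normal liver and fell by 1.64 ± 0.28 (SE, limma adjusted p = 0.00379). Its transducer Stat5b, named after its values were seen, did not pass (-0.42 ± 0.13, SE, limma adjusted p = 0.0687). Stat5b was lower in all 6 HCC than in all 6 normal livers, at 9.18 to 9.69 against 9.83 to 9.96, as were 3.08% of all probe sets. The interaction with Y-linked signal passed in none of the 13 in limma, and 4 had an unadjusted p under 0.05, against 7.97% of 18193 genes. These 4, named after their values were seen, were Igf1 at -0.42 with Y-linked signal and -2.80 without it, Onecut1 at -0.14 with it and -2.56 without it, Trim24 at 1.05 with it and 0.16 without it, and Stat5a at -1.05 with it and -0.16 without it. Among the sex-linked genes, none of 4 passed between HCC and normal liver, with Uty at 0.36 ± 1.13 (SE, limma adjusted p = 0.891).

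Zonal genes were set beside the members because many hepatic enzymes are made in only part of the lobule. None of 12 Wnt target and pericentral genes passed, with Cyp2e1 having the smallest p (-0.90 ± 0.38, SE, limma adjusted p = 0.178). That does not mean they were unchanged, since carcinomas moved in opposite directions. Glul was at 11.40 to 15.17 in HCC and 13.29 to 14.33 in normal liver. Slc1a2, named after its values were seen, was at 4.91 to 13.77 and 8.93 to 10.32. In both, 3 HCC lay below and 3 above every normal liver. The interaction with Y-linked signal passed in 1 of the 12, Rhbg, an ammonium transporter named after its values were seen, and in 1 of 8 periportal genes, Cyp2f2, against 0.0879% of 18193 genes. Its unadjusted p in limma was under 0.05 in 11 of the 12 and in all 8 periportal genes, against 7.97% of 18193 genes. The carcinomas without Y-linked signal, HCC 1 and HCC 4, were also those highest in Glul, and these features cannot be told apart in those 2. HCC 6, which had Y-linked signal, was at 14.62 in Glul, also above every normal liver. Rhbg was at -0.68 with Y-linked signal and 4.01 without it (limma interaction, adjusted p = 0.0274), and Cyp2f2 at -2.93 with it and -7.65 without it (adjusted p = 0.0432). Of 8 periportal genes 2 fell, Cyp2f2 at -4.50 ± 1.02 and Etnppl at -3.73 ± 0.58 (SE, limma adjusted p = 0.0170 and 0.00212), against 5.49% of all genes. In both all HCC lay below all normal livers, as in 3.08% of all probe sets. Of markers of other cells, Stab2 and Clec4g of sinusoidal endothelium, Clec4f of Kupffer cells and Lrat of stellate cells fell, out of 6 measured for each type. Of all genes, 5.49% fell. The summed intensity of the 6 stellate and fibroblast markers was 7402 to 54156 in HCC and 8360 to 13106 in normal liver, and that of the 6 Kupffer and myeloid markers was 3358 to 22693 in HCC and 4849 to 10410 in normal liver. Among the lists for biliary, T and NK, B and plasma, pancreatic acinar and kidney tubule cells no marker passed. The summed intensity of the 6 B and plasma markers was 618 to 6651 in HCC and 5962 to 9519 in normal liver. That of the 5 measured T and NK markers was 354 to 861 in HCC and 202 to 384 in normal liver. Vil1 of 6 intestinal markers rose, against 5.27% of all genes, and the acinar marker Cpa1 was near the floor on all arrays. The part of these cells in the results above was not tested.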

How the data were processed

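Biotin-labelled liver RNA of 6 HCC and 6 normal livers was hybridised to single-colour Affymetrix arrays, 1 a sample, per the labels. The deposited values are linear intensities per probe set, equal in trimmed mean across arrays. How probes were summarised into them was not given in the sources used here. Groups were taken from the sample titles. Of 45101 probe sets, 64 controls were left out, and 34945 of the rest named 1 gene, 932 several and 9160 none in the platform annotation.

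log2(intensity + 16) was quantile normalized and tested over 45037 probe sets with limma 3.58.1 in R 4.3.3 (lmFit, eBayes, two-sided), with Benjamini-Hochberg adjustment over all of them and a threshold of 0.05. A gene of a list was represented by its brightest probe set. Arrays were split by whether the mean of Eif2s3y, Kdm5d and Uty exceeded Xist, and an interaction term tested that split. Members, lists and tests were chosen with earlier results of these data known. Precision is limited by the number of arrays.

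By the rule for named genes, all members, other Sult genes and PAPS genes were named, and of each other list up to 3 genes past the test with the largest difference, or the one with the smallest p. Both groups are numbered 1 to 6, and deviations of arrays with the same number correlated at -0.018 to 0.064, and equal numbers were therefore not treated as pairing arrays. Promoter sequence came from RefSeq (GRCm38.p6), and 9 of 10 members matched. The test of HCC against normal liver was run on simulated data over 45037 probe sets. Changes of 0.5, 1, 2 and 4 on the log2 scale were recovered in 0%, 36%, 82% and 100% of 50 probe sets each. For the interaction, changes of 0.5, 1, 2 and 4 were recovered in 0%, 0%, 6% and 58% of 50. Each simulation left 44837 probe sets unchanged. In the data 8.33% were called between HCC and normal liver, a larger share than was changed here, so these recoveries do not give the sensitivity in the data. Other pseudocounts, scalings, filters, variance models, subsets of arrays and tests were tried. Tables and figures used Python 3.11.15, pandas 2.3.3 and matplotlib 3.10.9.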

Additional observations from a re-analysis of the deposited data

Results flagged for a closer look

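In HCC 4, Sult3a1 was at 8.65, far from the other 5 carcinomas, the nearest of which was at 5.87. In HCC 5, Sult6b1 was at 5.92, with the nearest carcinoma at 4.83. These were 2 of 30 sets of 6 arrays looked at, and chance gives about 1 in 20.

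The difference between HCC and normal liver passed a test for variation with Y-linked signal in Sult3a1 and in Sult2a2, with 2 HCC and 2 normal livers lacking that signal. In Sult3a1 it was -0.44 on the log2 scale in arrays with that signal and -6.69 in arrays without it, and the first minus the second was 6.26 (limma interaction, adjusted p = 0.0319). In Sult2a2 it was 1.85 in arrays with the signal and -5.003 in arrays without it, and the first minus the second was 6.85 (adjusted p = 0.0432).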

How the results depend on the processing

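No member rose under any setting tried. Sult2a8 and Sult1b1 stayed lower with each array left out (2 to 3 member probe sets lower) and under every other setting except the arrays without Y-linked signal, where 0 were called and Sult1b1 was at -1.36 (adjusted p = 0.203). In those arrays Sult1a1 turned to -0.39, Sult1c1 to 0.75, Papss1 to 0.080, Csad to 0.055 and Cyp2e1 to 0.13. Sult2a2 turned to 1.85 in the arrays with Y-linked signal, and Papss1 to 0.046 with the deposited scaling. With single arrays left out, Sult2a2 ran from -1.09 to 0.63, Papss1 from -0.10 to 0.058 and Uty from -0.25 to 1.03. The count of members whose difference depended on Y-linked signal, 1, became 0 with a pseudocount of 1, with the replicate block and at an adjusted p under 0.01, and was 0 to 1 with single arrays left out. The same count over all probe sets, 20, became 8 with a pseudocount of 1, 66 with 64, 55 without dim probe sets, 126 with a trended and robust variance, 44 with array weights, 0 with the replicate block, 7 at 0.01, and 0 to 140 with single arrays left out. Over all probe sets, 1971 higher and 1780 lower became 1159 and 926 with the replicate block, 788 and 555 at 0.01, 817 and 664 in arrays with Y-linked signal and 7 and 3 in those without it. With 1 probe set a gene 1179 were higher, and with single arrays left out 1384 to 2017 were higher and 1128 to 1935 lower, the fewest lower without normal 5. The replicate block changed no call of a member between HCC and normal liver, but Galns (adjusted p = 0.0538), Chst13 (0.0611), Nfe2l2 (0.0524) and Csad (0.0885) no longer passed. In an exact Wilcoxon test Cth and Hs3st3a1 did not pass (0.0757 each). The causes of these changes were not tested. Sult2b1 and the Sult4a1 probe sets were not tested without dim probe sets, since they were among them. Near the floor, at levels of 4 to 5.5, differences are understated.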
